A study of Mus musculus with 5 samples.

Results

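In leukemic blasts of mice, 960 of 13730 CpG-dense regions of 1 kb were methylated, which is 6.99% of them. A region was called CpG-dense where the reference held at least 50 CpG dyads (a CpG on both strands) in 1 kb, and it entered the count where every library gave at least 20 calls. The members were selected on the pooled methylation level of the 2 Tet2+/+ libraries, which had to reach 60%. The level is the weighted methylation level, the methylated calls over all calls of both strands. In all, 2367464 autosomal regions of 1 kb held a listed CpG, and 1021389 of them had 20 calls in every library.

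The blasts had been sorted from bone marrow as cells of the donor without T cell, B cell or erythroid surface markers, from lethally irradiated C57BL/6J.SJL mice that had received marrow of C57BL/6J donors (C57BL/6 in the labels). All of them carry Cebpa-/p30, in which 1 allele of the myeloid transcription factor gene Cebpa is deleted and the other yields only the p30 isoform. Both groups carry this lesion, so that no library represents normal marrow. The Tet2+/+ group (libraries 23 and 24) kept the 5-methylcytosine dioxygenase gene Tet2, and the Tet2-/- group (libraries 5, 7 and 8) had lost it. Deletion was driven by Mx1-Cre, which the donor marrow carried and which poly(I:C) induced after the transplantation. The recipients were young adult females when they received the marrow, and marrow was collected when they were moribund. The paper reports a shorter latency of leukemia in Tet2-/-, so that age and time of disease may differ between the groups. The labels do not give the age of the mice at sampling. One mouse stands behind each library.

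In mammals, most CpGs are methylated and have been lost over evolution by deamination to TpG, while CpG islands at gene starts mostly stay free of methylation. CpG-dense sequence that is nevertheless methylated in body tissues is known at young transposable elements, at starts of germline genes, at imprinted loci on 1 parental copy, in coding exons and, in tumors, at islands that acquire methylation. TET enzymes oxidize 5-methylcytosine as a step to its removal, and DNMT enzymes place and maintain it.

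Depth over the autosomes was 2.999 to 5.27 calls per dyad, and the autosomal level was 67.3% and 62.3% in Tet2+/+ and 70.9%, 74.8% and 68.4% in Tet2-/-. Library 24 was the lowest and library 7 the highest. A member had a median of 83 calls in its least covered library, and the 95% Wilson interval of its level in 1 library was 11.6 points wide at the median. Intervals cover counting error only, and calls of neighbouring CpGs on 1 read are not independent, so that they are too narrow. WGBS does not tell 5-methylcytosine from 5-hydroxymethylcytosine, and both count as methylated.

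The sequences of 6 members and of 1 CpG-dense region that was not methylated show what is compared. Each is the stretch of 200 bases with the most CpGs in its region that lies outside untranslated exons, read from the forward strand of GRCm38, with CpGs in capitals. Dact3 (chr7:16885366-16885565) and Plec (chr15:76180765-76180964) stand for coding sequence, Ddx4 (chr13:112652066-112652265) for the start of a germline gene and Hoxa5 (chr6:52204001-52204200) for a gene whose level differed between libraries. Fzd5 (chr1:64735114-64735313) and 1700001L05Rik (chr15:83367286-83367485) had the largest differences between the groups in each direction. Chd7 (chr4:8690343-8690542), with 177 dyads in its region, was the densest single-copy region under 20%.
Dact3: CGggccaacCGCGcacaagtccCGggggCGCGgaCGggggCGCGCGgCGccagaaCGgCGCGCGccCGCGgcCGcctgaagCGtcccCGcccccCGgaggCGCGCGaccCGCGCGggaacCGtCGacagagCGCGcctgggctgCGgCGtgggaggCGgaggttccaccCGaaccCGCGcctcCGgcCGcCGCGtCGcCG
Plec: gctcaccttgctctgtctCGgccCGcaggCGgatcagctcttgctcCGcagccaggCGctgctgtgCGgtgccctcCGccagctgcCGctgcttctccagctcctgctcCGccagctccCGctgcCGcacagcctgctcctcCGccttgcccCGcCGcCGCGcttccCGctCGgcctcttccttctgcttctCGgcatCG
Ddx4: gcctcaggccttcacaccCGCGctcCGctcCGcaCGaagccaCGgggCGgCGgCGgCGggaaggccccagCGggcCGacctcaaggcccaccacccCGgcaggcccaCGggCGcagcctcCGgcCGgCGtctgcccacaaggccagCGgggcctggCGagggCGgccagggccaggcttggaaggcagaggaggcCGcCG
Hoxa5: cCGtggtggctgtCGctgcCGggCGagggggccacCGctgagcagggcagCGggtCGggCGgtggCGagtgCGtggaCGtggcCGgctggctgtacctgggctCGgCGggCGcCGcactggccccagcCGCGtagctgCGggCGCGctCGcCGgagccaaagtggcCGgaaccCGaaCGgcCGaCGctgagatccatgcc
Fzd5: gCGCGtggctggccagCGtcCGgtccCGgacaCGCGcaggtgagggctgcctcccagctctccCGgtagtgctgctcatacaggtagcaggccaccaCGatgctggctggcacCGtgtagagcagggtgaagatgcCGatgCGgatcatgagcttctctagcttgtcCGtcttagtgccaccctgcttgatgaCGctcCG
1700001L05Rik: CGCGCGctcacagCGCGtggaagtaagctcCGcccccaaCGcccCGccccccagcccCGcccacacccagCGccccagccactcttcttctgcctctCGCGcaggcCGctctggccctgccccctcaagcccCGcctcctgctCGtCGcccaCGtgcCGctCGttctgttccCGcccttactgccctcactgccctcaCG
Chd7: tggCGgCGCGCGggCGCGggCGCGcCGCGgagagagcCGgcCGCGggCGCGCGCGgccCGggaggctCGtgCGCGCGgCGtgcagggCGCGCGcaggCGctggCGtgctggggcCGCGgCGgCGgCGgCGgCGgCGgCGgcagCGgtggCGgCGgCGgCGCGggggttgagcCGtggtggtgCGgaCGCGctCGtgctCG

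The stretch of Dact3 holds 43 CpGs and lies in its coding sequence, as do the stretches of Plec with 20, Hoxa5 with 28 and Fzd5 with 15. The Ddx4 stretch holds 23 CpGs, that of 1700001L05Rik 21 and that of Chd7 49, and none of these contains a coding base. In the Plec stretch the level was 94.8% and 95.1% in Tet2+/+ and 95.6%, 94.1% and 89.8% in Tet2-/-, from 49 to 153 calls. In the Chd7 stretch no methylated call was found among 144, 59, 98 and 271 calls of libraries 23, 24, 5 and 7, which allows levels of up to 2.08%, 5.08%, 3.06% and 1.11%. Library 8 stood at 2.67% of 75 calls there. In the Dact3 stretch the level was 88.9% and 46.0% in Tet2+/+, from 36 and 63 calls, and 87.1% and 41.4% in libraries 5 and 7, from 124 and 58 calls. Library 8 gave no call there.

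Most CpG-dense regions were low in Tet2+/+, and the counts fell from bin to bin up to 70%. Of the 13730 regions, 10135 lay under 10% in Tet2+/+ and 1250 at 10% to 20%. The next bins of 10 points held 602, 338, 261, 184, 131, 144 and 402 regions, and 283 regions lay at 90% or more. In all, 11385 regions were under 20% and 1385 between 20% and 60%. The members just inside the threshold were a coding region of Crmp1 at 60%, a region of Gm20760 and Gm26573 at 60.1% and the start of Gm43517 at 60.2%. Just outside it stood a region on chromosome 13 with no named gene at 59.9%, the start of Cbln4 at 59.9% and a region of Galnt17 at 59.8%. Among the 3 members just inside, library 23 gave 48.1% to 52.5% and library 24 gave 71.4% to 78.8%. Just outside it the libraries lay closer together, at 60% and 59.7% on chromosome 13, 58.4% and 62.6% at Cbln4 and 55.2% and 64.2% at Galnt17. Of the members, 820 were at 60% or more in every one of the 5 libraries, 469 at 80% or more and 132 at 90% or more.

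**Figure D1:**
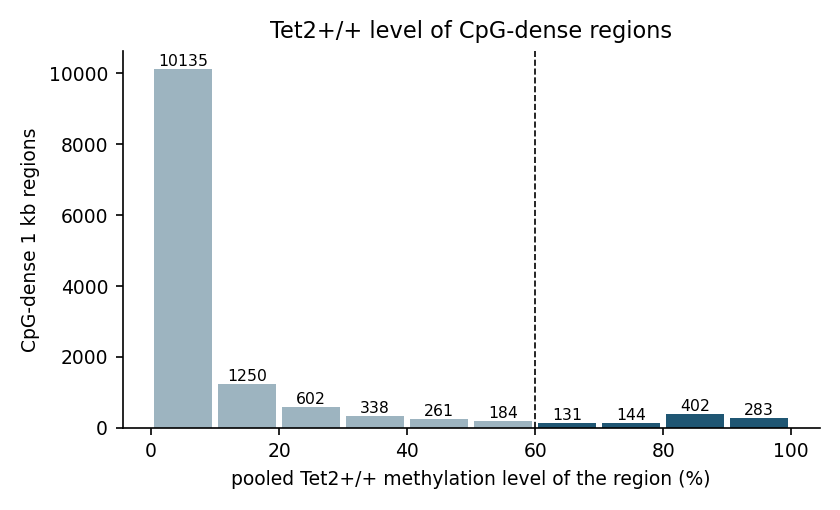
Number of CpG-dense 1 kb regions (vertical axis) in each 10-point bin of the pooled Tet2+/+ methylation level (horizontal axis, %), with the members in dark bars to the right of the dashed line at 60%. Most regions lie in the lowest bin (10135), and the counts rise again from 131 at 60% to 70% to 402 at 80% to 90%.

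The minimum of calls removed 903 of 14633 CpG-dense regions, and 596 of those would have reached 60% on the few Tet2+/+ calls they had. At least 50% of the bases were masked as repeats in 758 of the 903. The members leave these regions out.

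At the median, the members were less CpG-rich than the other CpG-dense regions and had more TpG and CpA, into which deamination turns CpG. Their median was 57 dyads, against 64 in regions at 20% to 60% and 71 in those under 20%. The median ratio of observed to expected CpG was 0.644, 0.716 and 0.778 in the same order, and that of TpG with CpA was 1.16, 1.08 and 1.02. The GC content hardly differed, with medians of 61.4%, 61.6% and 61.7%. Of the members, 571 held 50 to 59 dyads, 274 held 60 to 79, 70 held 80 to 99 and 45 held 100 or more. These features were read from the reference and were not used by the rule except for the dyads. The classes below were set after the data had been examined.

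Repeats were the largest class. In 384 members (40%) at least 50% of the bases were masked as repeats in the reference, against 4 of 11385 regions under 20% and 8 of 1385 regions at 20% to 60%. Another 78 members (8.13%) were duplicated, which here means that at least 50% of their 25-mers occur again in the autosomes. Of the 498 single-copy members, 69 held the 5′ end of a protein-coding gene and 352 held coding sequence and no such end. Another 43 lay in other parts of a protein-coding gene and 34 outside protein-coding genes. The median ratio of TpG with CpA was highest in coding members, at 1.24. It was 1.14 in repeat-masked members, and 1.09 at gene starts to 1.12 outside protein-coding genes in the remaining classes. That of CpG ranged from 0.607 in repeat-masked to 0.782 in duplicated members. Counted without classes, 416 members (43.3%) overlapped coding sequence and 285 (29.7%) held at least 500 coding bases, against 694 of 11385 regions under 20% (6.10%). The 5′ end of a protein-coding gene lay in 74 members (7.71%), against 6517 of the regions under 20% (57.2%). The start of any protein-coding transcript lay in 98 members (10.2%), against 7897 of the regions under 20% (69.4%). No annotated gene overlapped 286 members (29.8%), against 493 of those regions (4.33%).

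The repeat-masked members consisted mainly of 3 families. Members were joined where they shared at least 200 of their 25-mers, and the 3 largest groups held 173, 108 and 73 of the 384. The median 25-mer of a member occurred 2231 times in the autosomes in the first group, 2040 times in the second and 79 times in the third. The annotation used here gives no repeat names, so these groups have none, and no sequence of theirs is printed. Endogenous retroviruses and young LINE elements are the best known CpG-dense, multicopy sequences of the mouse genome. The level of the first group was 84.9% and 82.4% in Tet2+/+ and 86.8%, 90.6% and 82.3% in Tet2-/-. The second group stood at 84.5% and 81.7% against 84.1%, 88.5% and 81.6%, and the third at 84.6% and 81.5% against 86.6%, 91.0% and 83.2%. In each family library 7 was the highest and the other libraries overlapped between the groups. The difference of group means was 2.96, 1.62 and 3.87 points.

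Duplicated members clustered in the genome. Chromosome 12 held 94 members, which is 15.0% of its CpG-dense regions, and 35 of the 78 duplicated ones. Its windows from 15 to 20 Mb and from 20 to 25 Mb held 22 and 26 members, out of 39 and 43 CpG-dense regions. The window of chromosome 4 from 145 to 150 Mb held 13 members, of which 9 were duplicated. Chromosome 16 had the lowest share of its CpG-dense regions as members, 17 of 416 (4.09%). Reads from duplicated sequence are kept by the aligner only where they map uniquely, and copies cannot be told apart elsewhere.

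Over all members the level was 83.4% and 81.8% in Tet2+/+ and 85.3%, 84.8% and 81.4% in Tet2-/-. Library 8 lay below both Tet2+/+ libraries, so the groups overlapped. Tet2+/+ averaged 82.6% ± 1.18 (SD, n = 2). Tet2-/- averaged 83.8% ± 2.11 (SD, n = 3), which is 1.25 points more, while the difference over the 1021389 regions was 6.70 points. No test was made, since the Tet2+/+ level chose the members. By class, repeat-masked members differed by 2.70 points, coding members by 1.75, duplicated members by 0.93 and other parts of genes by 0.74. Gene starts stood at 76.2% and 77.3% in Tet2+/+ and 80.3%, 75.0% and 70.02% in Tet2-/-, a difference of -1.69 points, and members outside protein-coding genes differed by -1.74 points. The median member outside protein-coding genes differed by 2.76 points, 70.6% of these members had the higher mean in Tet2-/-, and 1700001L05Rik, at -54.1 points, was among them. In other parts of genes the median member differed by 3.41 points. The spread over the Tet2-/- libraries was greater than the difference in every class but the coding one, where the SD was 1.31 points. The forward and reverse strands of the members differed by at most 0.64 points within a library.

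**Figure D2:**
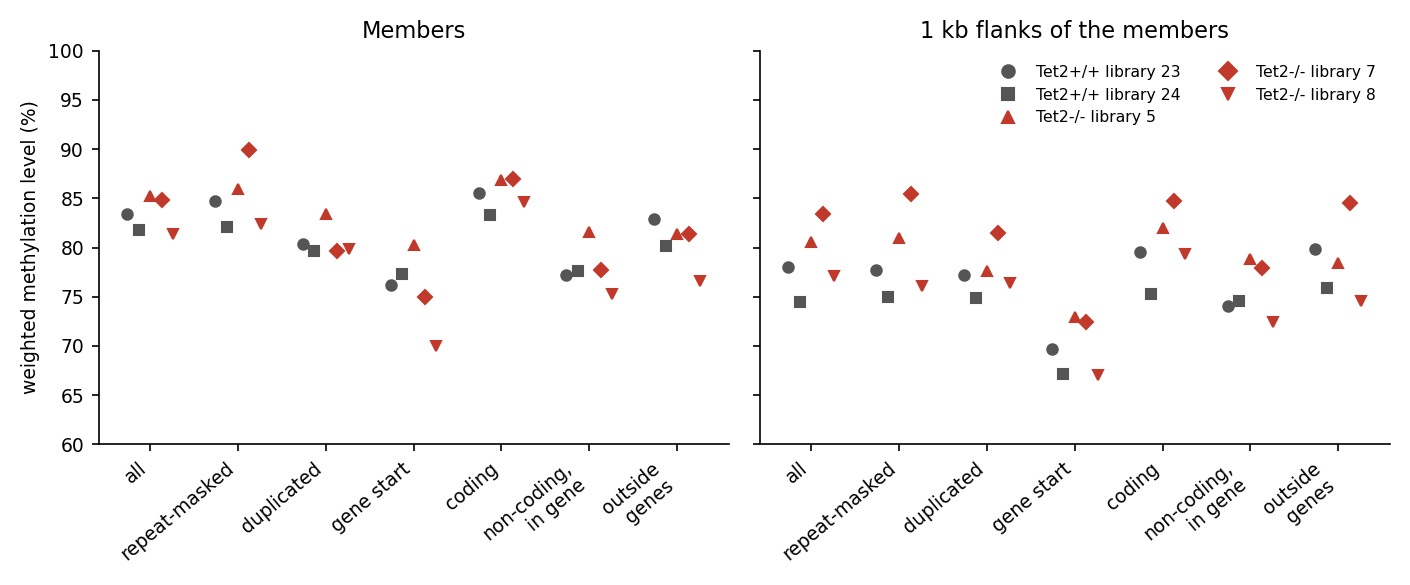
Weighted methylation level (vertical axis, %) of the members (left) and of their 1 kb flanks (right), for all members and for each class, with 1 point per library. Gene starts are the lowest class on both sides, library 7 is the highest for repeat-masked members at 89.95%, and the groups overlap in every class on both sides.

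The small difference depended on how regions were chosen. Where the same 60% was asked of the pooled Tet2-/- level instead, 1049 regions passed, 921 of them members, and the difference was 7.54 points. With the mean of the 5 levels it was 4.35 points over 1011 regions. Choosing on forward-strand calls of Tet2+/+ and measuring on the reverse strand gave 1.09 points over 959 regions. Choosing on library 23 alone and setting library 24 against Tet2-/- gave 5.33 points, and the opposite choice gave 1.80 points. These last settings were added after the data had been examined. The value of 1.25 points thus belongs to regions chosen as high in Tet2+/+.

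The same rule on the Tet2+/+ level, applied to less dense regions, gave larger differences. Among regions with 20 to 29 dyads, 55380 of 78222 reached 60%, and the Tet2-/- mean was 6.08 points above the Tet2+/+ mean. For 30 to 39 dyads the difference was 5.003 points, for 40 to 49 dyads 3.22 points and for the members 1.25 points. Sparse regions with 1 to 4 dyads differed by 3.55 points. Choosing on the Tet2-/- level changed this course, with 9.21 points at 20 to 29 dyads, 7.22 points at 40 to 49 and 7.54 points at 50 or more. With the mean of 5 levels the values were 8.14, 5.48 and 4.35 points. The share of regions that reached 60% was 76.9% at 10 to 19 dyads, 51.2% at 30 to 39, 25.4% at 40 to 49 and 6.99% at 50 or more. No test was made here, since every set was chosen on levels of the same libraries.

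**Figure D3:**
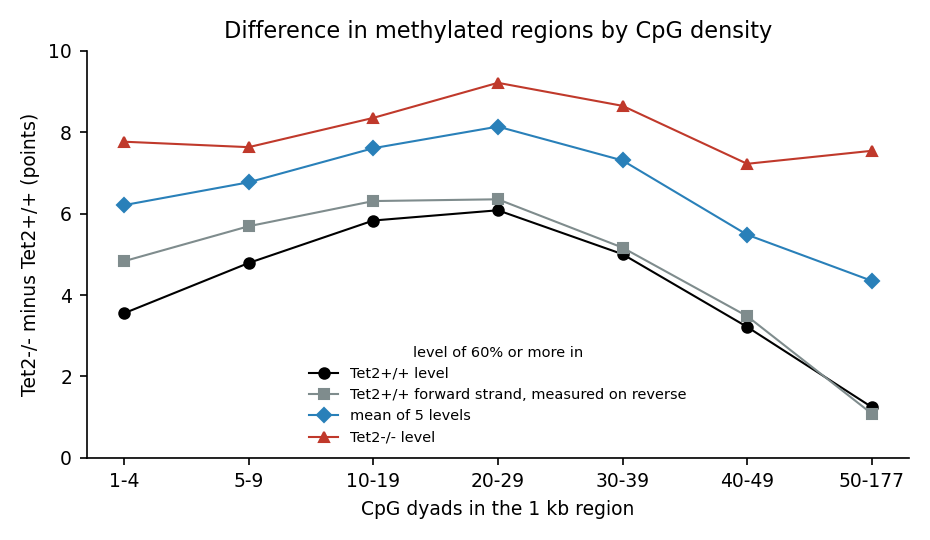
Tet2-/- minus Tet2+/+ difference of the weighted level (vertical axis, percentage points) in regions at 60% or more, by the number of CpG dyads in the 1 kb region (horizontal axis), with 1 line for each level used to choose the regions. From 20 to 29 dyads onward the lines chosen on Tet2+/+ go down to 1.25 and 1.09 points, whereas the line chosen on Tet2-/- ends at 7.54 points.

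The flanks of the members were not used by the rule, but whether the choice of members on Tet2+/+ bears on their difference was not tested. They comprised 1653 regions of 1 kb next to members that were not CpG-dense, with a mean of 18.4 dyads. Their level was 78.0% and 74.5% in Tet2+/+ and 80.5%, 83.4% and 77.1% in Tet2-/-. Tet2+/+ averaged 76.3% ± 2.47 (SD, n = 2). Tet2-/- averaged 80.3% ± 3.18 (SD, n = 3), which is 4.09 points more, with library 8 below library 23. A two-sided exact permutation test gave p = 0.3, and 2 libraries against 3 cannot go below 0.1. Flanks of gene starts were the lowest, with 69.7% and 67.2% against 72.9%, 72.5% and 67.0%. Those of coding members stood at 79.5% and 75.2% against 82.0%, 84.7% and 79.4%, a difference of 4.65 points.

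Methylated CpG-dense regions did not lie beside unmethylated ones as a rule. Only 23 members (2.40%) had a CpG-dense region under 20% as a direct neighbour, 233 (24.3%) had any CpG-dense neighbour and 140 (14.6%) had another member. Members had to be high in Tet2+/+ and their surroundings did not, so the rule itself sets part of the contrast between them. The surroundings of repeat-masked members stood at 66.1% and 69.2% in Tet2+/+ at 10 kb on each side. For coding members these values were 59.98% and 57.9%. Regions under 20% were chosen as low in the same way, with a Tet2+/+ mean of 3.32% inside, 25.2% and 25.3% in the next kb and 66.6% and 66.8% at 10 kb. Most members had similar Tet2-/- levels on both sides of their midpoint. In 790 members with 10 dyads and 20 Tet2-/- calls on each side, the sides differed by a median of 3.63 points, and by over 30 points in 26 (3.29%). Changes of level within a side, or in single libraries, were not tested. In the printed stretches of Dact3 and Hoxa5, some libraries lay well below their level in the whole region.

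**Figure D4:**
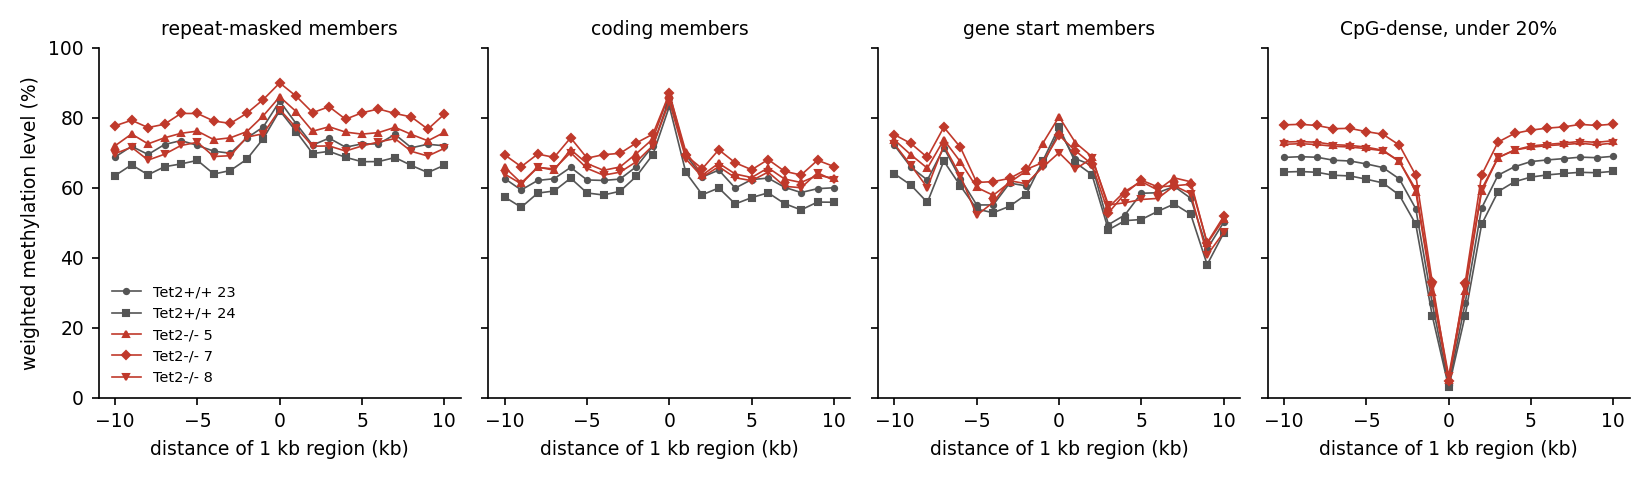
Weighted methylation level (vertical axis, %) of 1 kb regions by distance from the member or from the CpG-dense region under 20% (horizontal axis, kb, along the chromosome and not turned by the strand of the gene), with 1 line per library. The centres, at Tet2+/+ means of 83.4% for repeat-masked and 84.4% for coding members, were chosen as high, and those under 20% as low, so that the peaks and the trough partly restate the choice.

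Members were covered less than the average CpG. Relative to all autosomal dyads, their calls per dyad were 61.1% and 55.0% in Tet2+/+ and 65.6%, 69.8% and 53.6% in Tet2-/-. Tet2+/+ averaged 58.1% ± 4.32 (SD, n = 2). Tet2-/- averaged 63.0% ± 8.40 (SD, n = 3), and a two-sided exact permutation test gave p = 0.5. The rule asked for at least 20 calls in every library, so it set a floor under these values, also in each class. What this floor did to the comparisons of coverage was not tested. The coverage tests therefore cannot tell a group difference from an effect of the floor, and no conclusion is drawn from them. Repeat-masked members stood at 31.98% and 32.6% in Tet2+/+ and 33.2%, 33.9% and 33.8% in Tet2-/-, so that the groups did not overlap. The two-sided exact permutation test gave p = 0.1 there, the smallest these groups allow. It was 1 of 6 tests by class, which were added to the planned test of all members, and its Benjamini-Hochberg adjusted value over the 6 classes was 0.6. Single-copy members stood at 70.7% to 97.2%, while CpG-dense regions under 20% stood at 87.1% to 123.7%. Within single regions, too, the library with the lower level could have the more calls, as at Hoxa5 below. The part of coverage in the levels was not tested.

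Few members passed a test of single regions. In edgeR's quasi-likelihood test over all 1021389 regions, with Benjamini-Hochberg adjustment at 0.05, 2.36% of all regions were called higher in Tet2-/- and 0.0095% lower. Of the 960 members, 6 were called higher and 2 lower, and 97 (10.1%) had an unadjusted p under 0.05, against 168891 of all regions (16.5%). The members called higher were Fzd5, Spi1, Irf2bp1, Efnb3, Nt5dc2 and a repeat-masked region at chr9:106382001-106383000, and those called lower were 1700001L05Rik and Diras2. These counts are descriptions, since the rule used the Tet2+/+ side of the contrast. Without library 23 or 24 only 1 Tet2+/+ library remains, so no counts are given for those fits. Which direction of call was kept among the members depended on which of these libraries was left out. The difference over the members was 0.41 points without library 24 and 2.08 points without library 23. Without library 7 the count of members called was 5 (2 higher and 3 lower), beside 11970 of all regions in place of 24240. With limma after subtraction of each library's median, 0 members were called higher and 2 lower, beside 2783 of all regions higher and 323 lower. In that fit 116 members (12.1%) and 106829 of all regions (10.5%) had an unadjusted p under 0.05. All 3 Tet2-/- libraries lay above both Tet2+/+ libraries in 190 members (19.8%) and below both in 35 (3.65%), while over all regions these shares were 33.2% and 2.03%. The median difference of a member was 2.02 points, against 6.00 points over all regions, and 70.4% of members had the higher mean in Tet2-/-, against 80.9%.

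Among members with at least 50 calls in every library whose groups did not overlap, Fzd5 had the largest difference toward Tet2-/-. Its member lies in the coding sequence of this Wnt receptor gene (chr1:64735001-64736000) and stood at 80.5% and 46.2% in Tet2+/+ and 88.6%, 97.2% and 95.2% in Tet2-/-. Spi1, which encodes the myeloid transcription factor PU.1, stood at 74.9% and 53.1% against 88.5%, 92.9% and 92.6% (chr2:91115001-91116000). Library 24 was the lowest of the 5 at both.
Bcat1, an aminotransferase gene for branched-chain amino acids, stood at 91.2% and 45.4% against 93.0%, 94.4% and 91.3%. Zfp385a stood at 83.5% and 44.2% against 88.0%, 89.0% and 88.0%. In these 2 members library 23 was close to Tet2-/-, and the gap rests on library 24. Hand1, a developmental transcription factor gene, stood at 51.3% and 78.3% against 92.8%, 87.7% and 85.7%, and here library 23 was the lowest.

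The largest difference toward Tet2+/+ was at 1700001L05Rik, a gene without an annotated protein (chr15:83367001-83368000). Its level was 91.8% in library 23 and 32.7% in library 24, and 7.23%, 6.91% and 10.2% in Tet2-/-. The Wilson interval of library 24, 24.3% to 42.3%, overlapped none of the others. In the printed stretch library 23 stood at 92.5% of 40 calls, whereas libraries 24, 5 and 8 had no methylated call among 16, 66 and 41, which allows up to 18.8%, 4.55% and 7.32%, and library 7 stood at 1.33% of 75. The 2 Tet2+/+ libraries thus differed from each other by more than library 24 did from Tet2-/-.
At Diras2, a Ras-like GTPase gene, the level was 67.5% and 72.6% in Tet2+/+ and 35.2%, 22.5% and 40.6% in Tet2-/- (chr13:52530001-52531000). Here the Tet2+/+ libraries were close to each other, and the groups were apart by 37.3 points. Gm7389 stood at 81.2% and 79.8% against 69.2%, 46.6% and 46.0%, and the homeobox gene Lbx2 at 63.3% and 59.5% against 24.4%, 30% and 53.3%. Mn1, a transcriptional regulator gene known from myeloid leukemia, stood at 59.9% and 74.3% against 39.7%, 55.1% and 48.1%.

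**Figure D5:**
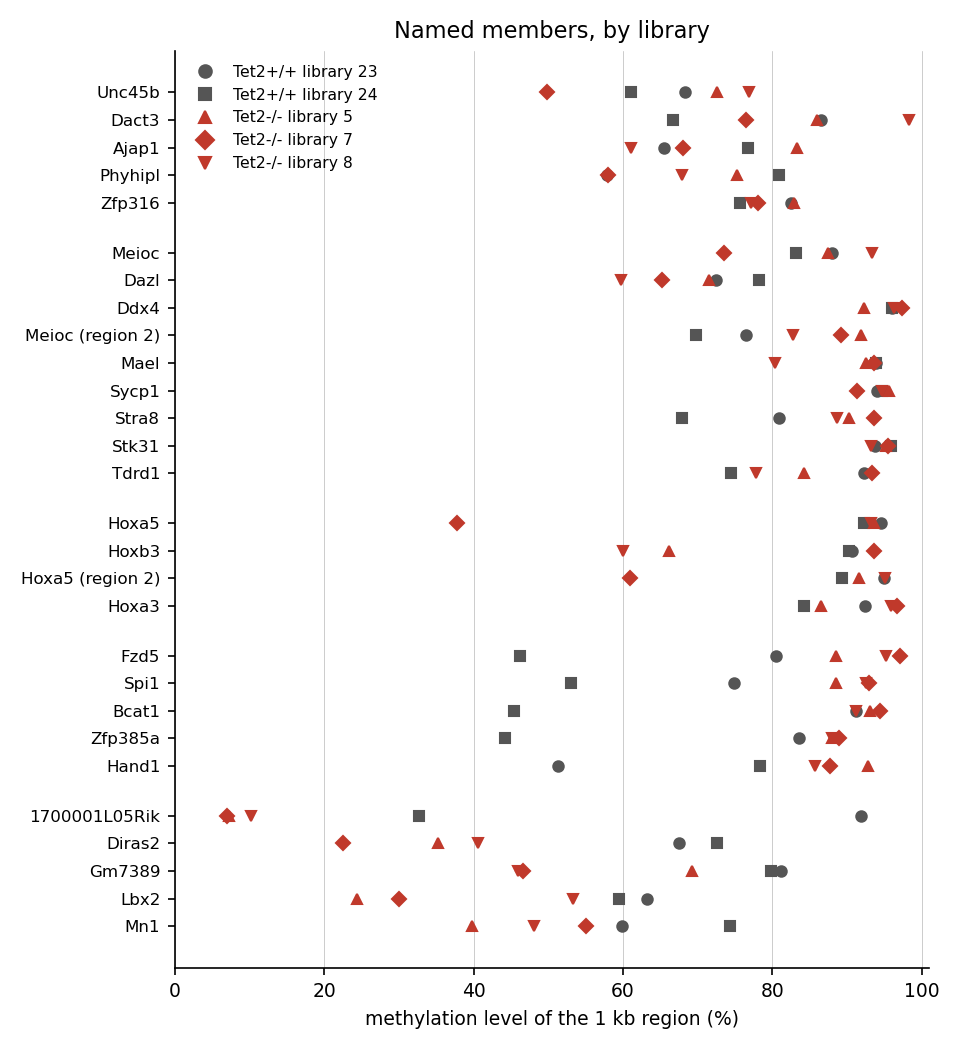
Methylation level (horizontal axis, %) of named members (vertical axis) in each library, in 5 blocks from top to bottom, the members with the most dyads, those of the germline list, those of the Hox list, and those with the largest differences toward Tet2-/- and toward Tet2+/+. Library 24 lies far to the left at Fzd5, Spi1, Bcat1 and Zfp385a, library 7 at Hoxa5 (37.8%), and 1700001L05Rik is high only in library 23 (91.8%).

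Runs of adjacent members were short. There were 820 members without a member next to them, 61 runs of 2, 3 of 3, 1 of 4 and 1 of 5. The run of 5 lay in Plec, the gene of the cytolinker plectin (chr15:76177001-76182000), and held 324 dyads at 95.3% and 94.6% in Tet2+/+ and 94.7%, 97.1% and 95.1% in Tet2-/-. The run of 4 lay in Filip1 (chr9:79900001-79904000), was repeat-masked, and stood at 88.6% and 86.7% against 90.1%, 93.3% and 86.6%. The first run of 3 lay in coding sequence of Mn1 (chr5:111418001-111421000), at 69.0% and 85.7% against 46.8%, 71.0% and 62.6%. The libraries were spread far wider at Mn1 than at Plec, and at Mn1 library 5 was the lowest and library 24 the highest.

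The 5 members with the most dyads had Tet2+/+ means of 64.7% to 79.1% and Tet2-/- means of 66.4% to 86.9%. High density did not always go with such levels, since Zfpm1, with 128 dyads, averaged 94.7% and 96.3%. Unc45b, a myosin chaperone gene, had 157 dyads (chr11:82931001-82932000) and stood at 68.3% and 61.1% in Tet2+/+ and 72.6%, 49.8% and 76.9% in Tet2-/-, and 65.5% of its 25-mers are repeated. Dact3, an antagonist of Wnt signaling, had 152 and stood at 86.5% and 66.7% against 85.9%, 76.4% and 98.2% (chr7:16885001-16886000). The level in library 8 rests on 57 calls, none of them in the printed stretch. Ajap1, Phyhipl and Zfp316 followed with 148, 143 and 142 dyads. The Tet2+/+ levels of Ajap1, whose 5′ end lies in the region, were 65.6% and 76.8%, and those of Tet2-/- were 83.3%, 68.0% and 61.1%. Phyhipl stood at 57.9% and 81.0% against 75.3%, 57.9% and 67.9%, and Zfp316 at 82.5% and 75.7% against 82.9%, 78.0% and 77.2%. In none of these 5 did the groups separate, while over all regions Tet2-/- lay above in 33.2% and below in 2.03%.

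Between the Tet2-/- libraries, gene starts had the largest median span of the 6 classes. The median span was 13 points at them, 10.6 points at duplicated, 9.32 at repeat-masked, 8.77 in other parts of genes, 6.86 outside protein-coding genes and 6.08 points at coding members. Between the Tet2+/+ libraries the SD of the class level was 0.78 points at gene starts. It was 0.23 in other parts of genes, 0.47 at duplicated, 1.59 at coding and 1.90 at repeat-masked members, and 1.97 outside protein-coding genes. This SD is not comparable with the span, since differences of single members can cancel in a class level and the rule used the Tet2+/+ levels. Single starts could differ more between libraries 23 and 24, as at Pdzrn3 and Ugt8a below. Of 69 single-copy members with the 5′ end of a protein-coding gene, 24 had all 5 libraries at 80% or more (34.8%), against 214 of 352 coding members (60.8%) and 23 of 78 duplicated members (29.5%). The 3 Tet2-/- libraries spanned over 30 points in 11 of the 69 gene starts, in 19 of the 352 coding members, in 3 of the 78 duplicated members and in 3 of the 384 repeat-masked members. At the densest start after Ajap1, that of the secreted factor gene Fam19a5 (chr15:87544001-87545000), the level was 69.7% and 73.4% in Tet2+/+ and 74.7%, 69.4% and 49.2% in Tet2-/-. Pdzrn3 stood at 49.3% and 78.6% against 68.3%, 36.8% and 54.7%, and Ugt8a at 57.0% and 82.4% against 71.1%, 55.1% and 48.7%.
Library 24 was the highest of the 5 at both. Nrg3, the gene of a neuregulin ligand, stood at 59.8% and 69.6% against 64.1%, 47.3% and 50.7%, and Galnt13 at 56.5% and 65.6% against 71.0%, 65.4% and 41.4%. Gm21863, a duplicated start, stood at 78.8% and 85.7% against 87.9%, 90.2% and 84.2%.
Other dense starts were fully methylated. Hsf5, a heat shock factor gene (chr11:87617001-87618000), stood at 94.7% and 96.5% against 95.3%, 97.2% and 93.6%, and 4933428G20Rik at 96.0% and 95.5% against 95.4%, 97.5% and 92.9%. The start of Boll, a germ cell RNA-binding protein gene related to Dazl, was lower, at 62.4% and 63.0% against 74.3%, 56.3% and 79%.

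The listed germline genes were nearly always members where they were CpG-dense. This list, like those below, was chosen with earlier results of these data known, so its shares are descriptions. Of 33 listed genes on the autosomes, 9 had a CpG-dense region, 8 had a member and 9 of their 10 CpG-dense regions were members, whereas 6.99% of all CpG-dense regions were. The 5′ end of the gene lay in 5 of them. Ddx4, the gene of a germ cell RNA helicase, stood at 96.0% and 96.0% in Tet2+/+ and 92.3%, 97.3% and 96.4% in Tet2-/- (chr13:112652001-112653000). Stk31 (chr6:49395001-49396000) stood at 93.8% and 95.9% against 95.2%, 95.5% and 93.2%. Mael, which acts in the piRNA pathway (chr1:166238001-166239000), stood at 93.9% and 93.8% against 92.5%, 93.6% and 80.4%. The starts of Ddx4 and Stk31 were high in all 5 libraries, and at Mael library 8 stood apart.
Tdrd1, also of the piRNA pathway, stood at 92.2% and 74.5% against 84.2%, 93.3% and 77.8%. Dazl, which encodes a germ cell RNA-binding protein, stood at 72.5% and 78.2% against 71.6%, 65.3% and 59.7% (chr17:50293001-50294000). Tet2-/- lay below Tet2+/+ at Dazl in all 3 libraries. The other members of the list did not hold the 5′ end of their gene, and its distance was not measured. Among them, Sycp1 of the synaptonemal complex stood at 94.1% and 94.7% against 95.7%, 91.4% and 94.7%. Stra8, which acts at entry into meiosis, stood at 80.8% and 67.9% against 90.3%, 93.6% and 88.6%. Meioc had 2 members, at 88.0% and 83.2% against 87.5%, 73.5% and 93.4%, and at 76.5% and 69.8% against 91.9%, 89.2% and 82.8%. All Tet2-/- libraries lay above both Tet2+/+ libraries in 2 of the 9 members and below in 2, against 33.2% and 2.03% of all regions. None of the 9 was called by edgeR, which called 2.36% of all regions higher and 0.0095% lower.

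The letters CACGTG, an E-box read the same on both strands, were found in all 5 germline members at a gene start. They occurred in 39.1% of the 69 single-copy gene starts, in 26.7% of coding members and in 20.8% of all CpG-dense regions. The letters TCCCGC or their complement GCGGGA were found in 3 of the 5, in 68.1% of the gene starts and in 74.8% of all CpG-dense regions. The motifs were chosen because germline gene starts are known to carry such letters, and a match is no binding site.

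Of 37 CpG-dense regions in 17 listed imprinted genes, 4 were members (10.8%), against 6.99% of all CpG-dense regions. The start of Nnat stood at 95.9% and 91.0% in Tet2+/+ and 91.0%, 95% and 95% in Tet2-/- (chr2:157560001-157561000). Grb10, a growth factor receptor adaptor gene, stood at 67.8% and 70.1% against 89.7%, 73.2% and 89.5%, with all Tet2-/- libraries above (chr11:12026001-12027000). Zdbf2 stood at 82.4% and 88.2% against 86.6%, 74.8% and 57.9%, and Gnas at 58.5% and 71.9% against 83.1%, 62.0% and 56.7%. Alleles were not told apart in these reads.

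Hox genes, which set positional identity and are often expressed in leukemia, had 4 members among 52 CpG-dense regions (7.69%), close to the 6.99% of all CpG-dense regions. The start of Hoxa5 (chr6:52204001-52205000) stood at 94.5% and 92.3% in Tet2+/+ and at 93.6%, 37.8% and 93.3% in Tet2-/-. Library 7 alone was low, with a Wilson interval of 33.6% to 42.1%, and the neighbouring member gave 94.96% and 89.4% against 91.6%, 61.0% and 95.1%. Library 7 also had the most calls there, 503 against 89 to 280 in the others, and 159 against 17 to 31 in the printed stretch, where its level was 17.6%. Hoxb3 stood at 90.6% and 90.2% against 66.2%, 93.6% and 60%, so that at this locus library 7 was high and the other Tet2-/- libraries were low. Hoxa3 stood at 92.4% and 84.3% against 86.5%, 96.7% and 95.9%.

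The clustered protocadherin genes, which encode neuronal adhesion molecules from arrays of similar first exons, held 20 members among 25 CpG-dense regions (80%). They lie on chromosome 18, where Gm42416 spanned 19 members, Gm37013 17 and Gm37388 16, and where Pcdha1 spanned 10 and Pcdha2, Pcdha3, Pcdha4, Pcdhga1, Pcdhga2 and Pcdhga3 spanned 9 each. These spans overlap, so that the same members are counted several times. The median difference was -3.20 points, with 2 members in which all Tet2-/- libraries lay above Tet2+/+ and 2 in which they lay below, against 33.2% and 2.03% of all regions. Pcdhgb5 stood at 85.4% and 89.3% in Tet2+/+ and 90.1%, 83.3% and 81.6% in Tet2-/-. Pcdha9 stood at 80.6% and 89.0% against 80.8%, 91.8% and 80.5%. At Pcdhga12 library 7 alone was low, at 22.3%, with 76.8% and 86.1% in Tet2+/+ and 85.8% and 86.1% in libraries 5 and 8. Similar exons share sequence, and 33.8% of the 25-mers of the Pcdha9 member occur elsewhere.

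Zinc finger genes held 28 members among 240 CpG-dense regions (11.7%), of which 1 was at a gene start. Zfpm1, which encodes the GATA cofactor FOG1, stood at 93.9% and 95.5% in Tet2+/+ and 95.7%, 97.3% and 95.8% in Tet2-/-, over 128 dyads of coding sequence (chr8:122336001-122337000). Zfp865 stood at 94.7% and 94.5% against 95.7%, 96.7% and 93.0%, and Zfp319 at 94.3% and 93.6% against 95.2%, 95.8% and 93.0%. These exons were near full methylation in every library. At Zfp385b the level was 64.8% and 55.9% against 65.5%, 50.3% and 37.3%. All Tet2-/- libraries lay above both Tet2+/+ libraries in 8 of the 28 and below both in none, against 33.2% and 2.03% of all regions. None of the 28 was called by edgeR, which called 2.36% of all regions higher and 0.0095% lower.

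Long CpG-rich genes held 16 members among 53 CpG-dense regions (30.2%), in Plec, Ahnak2, Celsr1, Celsr2 and Fat1. Plec had 7, the most of any gene outside the protocadherin cluster, and all 5 libraries stood at 92.2% or more in those with 59 or more dyads. At Celsr1, a planar cell polarity cadherin gene, 2 adjacent members differed, with 69.7% and 57.7% in Tet2+/+ against 85.8%, 81.1% and 69.4% in one and 96.2% and 96.8% against 91.9%, 97.0% and 96.3% in the other. Of 26 tumor suppressor genes with a CpG-dense region, only the estrogen receptor gene Esr1 had a member, 1 of 45 regions (2.22%). It held coding sequence and not the annotated 5′ end of the gene, whose distance was not measured. The levels were 90.6% and 69.9% against 94.7%, 95.3% and 89.0%. Among the collagen genes Col9a3 had the 1 member of 20 regions, at 86.3% and 78.2% against 91.4%, 97.2% and 93.4%.

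Single libraries stood apart in a minority of members. The 3 Tet2-/- libraries spanned a median of 7.99 points and the 2 Tet2+/+ libraries 4.77 points. A span of 3 libraries tends to be wider than a span of 2, and the rule used the Tet2+/+ levels, so the spans are not comparable. The Tet2-/- libraries spanned over 30 points in 36 members, with library 8 the lowest in 15, library 7 in 13 and library 5 in 8. The Tet2+/+ libraries did so in 15 members, with library 24 the lower in 12. By class, the 36 members of the Tet2-/- count comprised 19 coding members, 11 gene starts, 3 repeat-masked and 3 duplicated members. The Tet2-/- mean was under 60% in 36 members and under 50% in 10.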

How the data were processed

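Whole-genome bisulfite sequencing was done by the authors on sorted AML blasts of 5 mice, with random-primed libraries. The authors checked reads with FastQC 0.11.7, trimmed them with Trim Galore 0.4.3, and aligned them to GRCm38 (mm10) with Bismark 0.19.1 and Bowtie2 in non-directional mode, followed by removal of duplicates. The deposited tables give raw counts for each CpG cytosine, one of methylated and one of unmethylated calls.

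Both strands were summed per dyad over 19 autosomes, all 20383623 dyads of which lie at a CG of the reference, and in regions of 1 kb. Sequence and masked bases came from RefSeq GRCm38, genes from GENCODE vM21. Groups came from the titles. The members, lists and rule were chosen with earlier results of these data known. Named members were those with the most dyads, the longest runs, the genes with most members, the densest gene starts, the 5 largest differences in each direction with at least 50 calls per library and groups that do not overlap, those at the threshold, and those of listed genes. Flanks and coverage were compared by two-sided exact permutation tests over 5 libraries. Regions were compared with edgeR 4.0.16 (quasi-likelihood, a coefficient per library, trended dispersion) or limma 3.58.1 on log2((methylated + 2)/(unmethylated + 2)), in R 4.3.3. Both were checked on simulated counts with gains only, in regions less methylated than the members, so the check covers neither members nor losses. Depth was 2.999 to 5.27 calls per dyad. No batch was named in the labels. p-values measure the spread between these mice.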

Additional observations from a re-analysis of the deposited data

How the results depend on the processing

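The difference over the members, 1.25 points, moved to 7.54 points where regions were chosen on Tet2-/-, to 4.35 points on the mean of 5 levels and to 5.33 points on library 23 alone, and it was -5.35 points after subtraction of the autosomal difference. It was 0.067 points with 60 dyads, 0.12 with a minimum level of 50%, 2.36 with 40 dyads and 2.08 as the mean of the members' own levels, and 0.41 to 2.46 points with 1 library left out. The number of members was 2536 with 40 dyads and 389 with 60, and their coding share was then 41.4% and 49.9%. The count of all regions called, 24240 of 1021389, was 3106 of the same regions with limma after median subtraction, 15928 of 261120 with 50 calls and 32 of 13730 over CpG-dense regions alone, and 1691 (without library 24) to 22222 with 1 library left out. Members called, 8 of 960, were 6 with limma and 2 (0 higher) with limma after median subtraction. They were 9 of 1126 with 10 calls and 9 of 664 with 50 calls. In edgeR over CpG-dense regions they were 0, with 69 members and 1703 of 13730 regions at an unadjusted p under 0.05. With 1 Tet2-/- library left out they were 5 to 10. With 1 library of either group left out, the flank difference ranged from 2.33 to 5.84 points. The coverage difference then ranged from 1.52 to 9.61 points, and both kept their direction. The groups hold 2 and 3 libraries, so outlying libraries were not tested. No paired analysis was possible because the groups share no replicate numbers.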
